A study of Mus musculus with 41 samples.

Results

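Complement components and regulators were described through 9 mouse genes: C1qa, C1qb, C1qc, C3, C4b, Cfb, Cfi, C8a and C3ar1. They were taken by symbol from a count table of 48795 genes, which held all 9. The low-count filter kept 9 of 9 in the first cohort, where 15701 genes were tested, and 8 of 9 in the second, where 15543 genes were tested and C8a was not kept. In the first cohort C8a was kept through Control alone, so its calls are no support for a difference. The study asked how removal of the healthy kidney alters an injured kidney that was left in place. RNA came from the frozen pole of mouse kidneys and was read as 3′ end counts, so that each transcript gave a fragment near its end whatever its length.

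The first cohort held 24 libraries of male mice aged 8 to 10 weeks, 6 in each of 4 groups. In UIRI+Nx d7, UIRI d7 and UIRI d3 the left kidney had been made ischemic for 21 minutes at a core temperature of 34 °C. UIRI+Nx d7 kidneys were harvested on day 7, after the uninjured right kidney had been removed (nephrectomy) on day 3. UIRI d7 kidneys were also harvested on day 7, after a sham nephrectomy on day 3. UIRI d3 kidneys were harvested on day 3, with no second operation, and Control mice had no ischemia. The second cohort held WT_IRNxd7 (4 libraries), WT_IRd7 (6 libraries) and WT_IRd3 (6 libraries), labelled as wild type with the same injury, days and nephrectomy. The labels name no control group for it and give no sex, age, ischemia time or nephrectomy day. The strain was not given for either cohort. The labels of the second cohort do not say that its libraries came from separate animals, so p-values there measure only the spread between libraries.

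Complement is a protein cascade of innate immunity that tags cells and debris and can perforate membranes. C1q, built from the A, B and C chains, starts the classical pathway, C4b belongs to that pathway, and C3 is the component on which all pathways converge. Factor B (Cfb) drives the alternative pathway, factor I (Cfi) cleaves and inactivates the active fragments of C3 and C4, C8a contributes a chain to the membrane attack complex, and C3ar1 is the receptor for the C3a fragment. Liver makes most circulating complement, and in kidney C1q is known from macrophages and C3 from tubule epithelium.

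On GRCm38 the 3 C1q genes lie side by side within 18675 bases of the minus strand of chromosome 4, at chr4:136895917-136898803 (C1qa), chr4:136889804-136893065 (C1qc) and chr4:136880129-136886187 (C1qb). C8a lies on the same chromosome at chr4:104815679-104876398, minus strand, and a gene on the opposite strand, Gm17662, lies within it. C3 is at chr17:57203970-57228136 and Cfb at chr17:34856374-34862518, both on the minus strand, and Cfb is overlapped on the same strand by Gm20547. C4b, at chr17:34728380-34743882, has a near copy, C4a, and the last 300 bases of the transcripts are 97.7% identical, so the authors' counting could have split reads between them. Cfi is at chr3:129835884-129875332 on the plus strand and C3ar1 at chr6:122847138-122856161 on the minus strand.

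Promoter sequences are shown for the neighbours C1qb and C1qc, whose levels moved together, for C3, the member with the highest fold over Control, and for C8a, which was lost after injury. Each runs from 250 bases before to 50 bases into the transcript on the minus strand of GRCm38.p6, from RefSeq. Capitals mark the motifs searched on both strands: AGGAAG, a core of sites for the myeloid factor PU.1, TTNNGNAA, the C/EBP motif, and GTTAAT, a piece of the HNF1 motif.
C1qb promoter, chr4:136886151-136886450: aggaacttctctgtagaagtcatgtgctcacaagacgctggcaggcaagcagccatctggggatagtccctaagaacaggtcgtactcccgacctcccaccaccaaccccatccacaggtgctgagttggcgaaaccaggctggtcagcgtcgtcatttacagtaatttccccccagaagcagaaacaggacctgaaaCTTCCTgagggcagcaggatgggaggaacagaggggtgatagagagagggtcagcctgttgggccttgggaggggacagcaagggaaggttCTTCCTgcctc
C1qc promoter, chr4:136892865-136893164: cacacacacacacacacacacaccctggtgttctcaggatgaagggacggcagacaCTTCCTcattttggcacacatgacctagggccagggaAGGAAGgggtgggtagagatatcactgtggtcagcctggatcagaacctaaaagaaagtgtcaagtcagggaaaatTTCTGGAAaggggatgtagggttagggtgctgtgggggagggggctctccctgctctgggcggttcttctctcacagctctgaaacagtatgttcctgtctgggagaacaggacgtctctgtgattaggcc
C3 promoter, chr17:57228087-57228386: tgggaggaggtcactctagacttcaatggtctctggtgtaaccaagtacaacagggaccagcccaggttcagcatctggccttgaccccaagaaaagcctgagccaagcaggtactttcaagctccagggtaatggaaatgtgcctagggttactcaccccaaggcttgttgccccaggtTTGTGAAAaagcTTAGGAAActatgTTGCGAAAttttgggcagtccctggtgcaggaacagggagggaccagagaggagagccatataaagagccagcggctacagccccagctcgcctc
C8a promoter, chr4:104876349-104876648: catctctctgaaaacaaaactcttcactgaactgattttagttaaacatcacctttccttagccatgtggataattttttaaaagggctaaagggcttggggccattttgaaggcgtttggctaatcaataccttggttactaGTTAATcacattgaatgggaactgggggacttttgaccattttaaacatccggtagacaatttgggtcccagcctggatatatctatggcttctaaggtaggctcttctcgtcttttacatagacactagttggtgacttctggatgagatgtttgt
The PU.1 core was found in C1qb at -52 and 40 and in C1qc at -194 and -157, counted to its first base on the strand shown from the first base of the transcript. It occurs in 35.4% of 32851 promoters of the same length. The C3 promoter held the C/EBP motif at -70, -58 and -45 and the C1qc promoter at -81, against 40.7% of promoters with a match. The HNF1 piece was found in C8a at -107 and occurs in 7.10% of promoters. Matches are letters in these windows and were not tested as sites.

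Total counts ran from 5090418 to 33362940 per library, and values are CPM, the counts of a gene divided by the library size in units of 1000000 counts, after TMM scaling, which corrects library sizes for composition. The kidney markers Lrp2, Slc34a1 and Slc5a12 were present in every group. Numbers in the column names place the libraries in blocks, 1a, 1b and 2b in the first cohort and 2a and 2c in the second, which the labels do not name as batches. UIRI d7 had no library in block 2b, and WT_IRd3 was in block 2a alone. In whole tissue, which cells carried a transcript was not measured, and fewer cells of a type cannot be told apart from less RNA per cell.

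**Figure D1:**
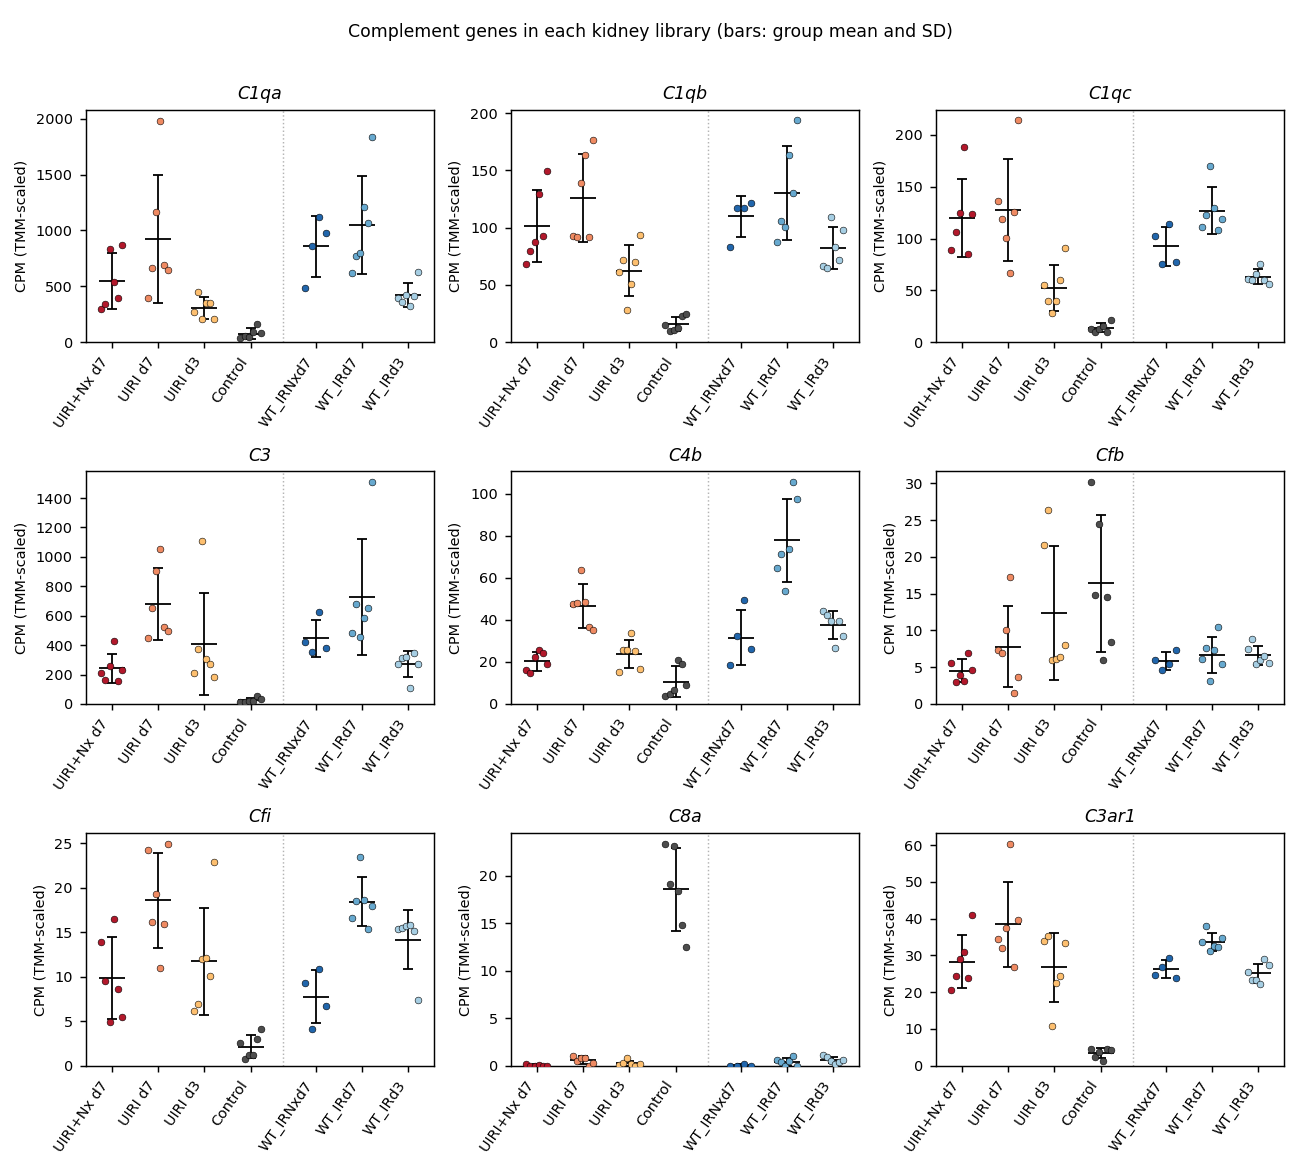
Normalised level of each of the 9 members in every library (y axes, CPM; x axis, the 7 groups; lines are the mean and bars the SD). Control kidneys were lowest for the C1q chains, C3, C4b, Cfi and C3ar1 and highest for C8a, at 12.5 to 23.3 CPM.

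Injured kidneys held more C1q, C3, C4b, Cfi and C3ar1 mRNA than Control kidneys, and almost no C8a mRNA. By edgeR's quasi-likelihood test with Benjamini-Hochberg adjustment over all genes, 9 of 9 members differed from Control in UIRI+Nx d7, where 31.3% of all tested genes did. In UIRI d7, 8 of 9 members differed, against 39.6% of all genes, and in UIRI d3 also 8 of 9, against 32.7%. In each of these groups 7 members rose, beside 17.3% of all genes in UIRI+Nx d7, 21.5% in UIRI d7 and 17.8% in UIRI d3. C8a fell in all 3, and Cfb fell in UIRI+Nx d7, beside 14.0% of all genes that fell in UIRI+Nx d7, 18.1% in UIRI d7 and 14.9% in UIRI d3. C8a is in these counts and in the medians that follow, but the filter kept it through Control alone. Its calls are therefore no support. The median log2 fold change of the 9 members was 2.67 in UIRI+Nx d7, beside 0.02 over all tested genes, 3.13 in UIRI d7, beside 0.04, and 1.97 in UIRI d3, beside 0.00.

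The 3 chains of C1q rose together. C1qa ran from 295 to 866 CPM in UIRI+Nx d7 (median 465), 392 to 1984 CPM in UIRI d7 (median 678) and 203 to 452 CPM in UIRI d3 (median 311), against 33.1 to 159 CPM in Control (median 67.8). C1qb ran from 67.8 to 149.6 CPM in UIRI+Nx d7 (median 90.2), 91.8 to 176 CPM in UIRI d7 (median 116) and 27.9 to 93.4 CPM in UIRI d3 (median 65.6), against 9.91 to 24.9 CPM in Control (median 13.6). C1qc ran from 85.0 to 189 CPM in UIRI+Nx d7 (median 115), 66.7 to 214 CPM in UIRI d7 (median 122) and 27.9 to 91.0 CPM in UIRI d3 (median 47.6), against 10.1 to 21.2 CPM in Control (median 13.1). For each chain every injured library lay above every Control library, a separation that 9.74% of genes showed upward in UIRI+Nx d7, 10.9% in UIRI d7 and 10.3% in UIRI d3. These shares also stand beside the separations from Control given below for C3, C4b, Cfi, C3ar1 and Clu. The fold over Control was largest on day 7 without nephrectomy, at log2 3.59 ± 0.42 (SE) for C1qa (adjusted p = 1.26e-07), 2.98 ± 0.29 for C1qb (8.19e-09) and 3.19 ± 0.30 for C1qc (3.09e-09). On day 3 it was 1.99 for C1qa, 1.97 for C1qb and 1.91 for C1qc, with adjusted p of at most 0.000233. Within block 2b the C1qa change in UIRI+Nx d7 was 2.40, at adjusted p = 0.0515.

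Macrophage markers moved with C1q. Of 16 macrophage and monocyte markers, which hold no complement gene, 12 rose over Control in UIRI+Nx d7, 15 in UIRI d7 and 13 in UIRI d3. Their summed level was 1234 to 2118 CPM in UIRI+Nx d7, 1563 to 2820 CPM in UIRI d7 and 598 to 1125 CPM in UIRI d3, against 366 to 688 CPM in Control, and none of the defining markers Adgre1, Csf1r and Cd68 was at 0 in any group. Their part in the C1q result was not tested. The sum of the C1q chains per unit of that marker sum was 0.324 to 0.541 in UIRI+Nx d7, 0.343 to 0.785 in UIRI d7 and 0.375 to 0.555 in UIRI d3, against 0.149 to 0.294 in Control, so on this ratio too the injured libraries did not overlap the Control libraries. The chains were not counted in a fixed proportion: C1qa per C1qc ran from 2.86 to 7.03 in UIRI+Nx d7, 2.87 to 29.8 in UIRI d7, 2.23 to 11.4 in UIRI d3 and 2.53 to 15.7 in Control. The highest ratio belonged to UIRI d7 replicate 4, which also had the highest C1qa, 1984 CPM.

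**Figure D2:**
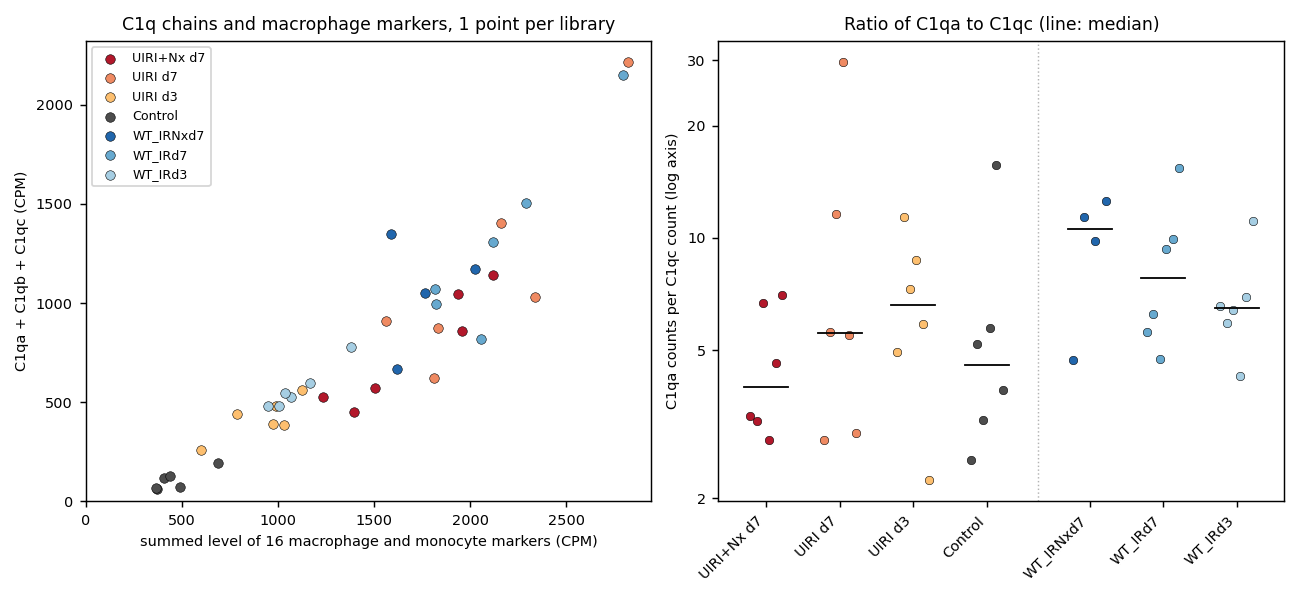
Left, summed C1qa, C1qb and C1qc (y axis, CPM) against the sum of 16 macrophage and monocyte markers (x axis, CPM), a point per library, coloured by group. Right, counts of C1qa per count of C1qc in each library (log axis, line at the median); the Control libraries lie at the lower left of the left panel, at no more than 192 CPM of C1q.

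C3 had the largest rise of the 9 genes in each injured group. It ran from 157 to 428 CPM in UIRI+Nx d7 (median 222), 447 to 1051 CPM in UIRI d7 (median 590.1) and 183 to 1107 CPM in UIRI d3 (median 289), against 10.8 to 53.1 CPM in Control (median 20.4). No injured library overlapped Control. The log2 fold change was 3.24 ± 0.43 (SE) in UIRI+Nx d7 (adjusted p = 1.44e-06), 4.73 ± 0.46 in UIRI d7 (6.95e-09) and 3.99 ± 0.44 in UIRI d3 (8.24e-08). The highest day 3 value, 1107 CPM, came from UIRI d3 replicate 3, in which 8 neutrophil markers summed to 2010 CPM against a group median of 118 CPM. Without that library the day 3 change was 3.39 (adjusted p = 4.52e-08). Within blocks the change was 3.71 (1a) and 2.20 (2b) in UIRI+Nx d7, 5.50 (1a) in UIRI d7, and 4.20 (1a) and 2.53 (2b) in UIRI d3.

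C4b, of the classical pathway, reached 14.6 to 25.6 CPM in UIRI+Nx d7 (median 20.5), 35.4 to 63.8 CPM in UIRI d7 (median 48.0) and 15.1 to 33.7 CPM in UIRI d3 (median 25.3), against 3.82 to 20.7 CPM in Control (median 7.67). Only UIRI d7 was free of overlap with Control. The log2 fold change was 2.14 ± 0.32 in UIRI d7 (adjusted p = 6.68e-06), 1.16 ± 0.32 in UIRI d3 (0.00582) and 0.93 ± 0.32 in UIRI+Nx d7 (0.0258). The call in UIRI+Nx d7 was lost, at adjusted p up to 0.0684, when UIRI+Nx d7 replicate 4 or 5 or Control replicate 1, 2, 3 or 6 was left out. Within block 2b the C4b change was 0.63 in UIRI+Nx d7 (adjusted p = 0.485) and 0.82 in UIRI d3 (0.204), neither past the threshold. Its near copy C4a averaged 0.817 ± 0.469 CPM in UIRI+Nx d7, 1.31 ± 0.774 CPM in UIRI d7, 0.967 ± 0.533 CPM in UIRI d3 and 1.55 ± 0.259 CPM in Control (SD, n = 6 each).

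Cfi, the protease that limits C3 and C4 fragments, also rose. It ran from 4.93 to 16.5 CPM in UIRI+Nx d7 (median 9.10), 11.02 to 24.9 CPM in UIRI d7 (median 17.7) and 6.20 to 22.9 CPM in UIRI d3 (median 11.03), against 0.726 to 4.12 CPM in Control (median 1.88). Injured and Control libraries did not overlap, and the log2 fold change was 2.23 ± 0.39 in UIRI+Nx d7 (adjusted p = 6.38e-05), 3.13 ± 0.40 in UIRI d7 (5.15e-07) and 2.47 ± 0.39 in UIRI d3 (1.62e-05). Within block 2b the UIRI+Nx d7 change was 1.02, at adjusted p = 0.255.

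Like C3, C4b and Cfi, markers of injured tubule epithelium were higher than in Control, and 10 of 10 rose in all 3 injured groups. Their sum was 3822 to 5864 CPM in UIRI+Nx d7, 5055 to 6925 CPM in UIRI d7 and 5360 to 8501 CPM in UIRI d3, against 493 to 716 CPM in Control. The median of that sum was 4392 CPM in UIRI+Nx d7, 6369 CPM in UIRI d7 and 6674 CPM in UIRI d3, with overlapping ranges. Among injured groups C3, C4b and Cfi also averaged lowest in UIRI+Nx d7, and highest in UIRI d7. In the second cohort the marker median was 5657 CPM in WT_IRNxd7, 6735 CPM in WT_IRd7 and 6354 CPM in WT_IRd3, and C3, C4b and Cfi averaged highest in WT_IRd7. In UIRI d7 against UIRI d3, 0 of the 10 markers rose and 1 fell. In WT_IRd7 against WT_IRd3, 1 rose and 0 fell. Fibroblast markers rose too, 8 of 8 in UIRI+Nx d7 and 7 of 8 in both UIRI d7 and UIRI d3. Their sum was 2129 to 2702 CPM in UIRI+Nx d7, 1401 to 2519 CPM in UIRI d7 and 1276 to 2147 CPM in UIRI d3, against 284 to 455 CPM in Control. The defining markers of neither list were at 0 in any group. Most macrophage markers, given above for C1q, rose over Control as well, and the part of all these cells in the changes was not tested.

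Cfb, the protease component of the alternative pathway, did not rise in the deposited counts. It ran from 2.93 to 6.96 CPM in UIRI+Nx d7 (median 4.24), 1.55 to 17.2 CPM in UIRI d7 (median 7.13) and 5.95 to 26.3 CPM in UIRI d3 (median 7.18), against 5.97 to 30.2 CPM in Control (median 14.7). All groups overlapped. Cfb fell in UIRI+Nx d7 by 1.86 ± 0.48 on the log2 scale (adjusted p = 0.0039), whereas the log2 difference was -1.08 ± 0.47 in UIRI d7 (0.0697) and -0.41 ± 0.46 in UIRI d3 (0.547). Cfb levels also differed between library blocks: Control libraries held 14.8 to 30.2 CPM in block 1a, 8.40 to 14.5 CPM in block 2b and 5.97 CPM in block 1b. Within blocks the UIRI+Nx d7 difference was -2.48 in 1a (adjusted p = 0.00106) and -0.98 in 2b (0.271), and the UIRI d3 difference was 0.07 in 1a and -0.78 in 2b. Leaving out Control replicate 4 or 6, UIRI d3 replicate 2 or UIRI d7 replicate 4 brought the UIRI d7 difference past the threshold, at adjusted p down to 0.0146. Gm20547 overlaps nearly all of Cfb on the same strand, so the authors' counting could have left out or split Cfb reads, which was not tested.

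C8a, a gene of the terminal pathway, was nearly absent after injury. UIRI+Nx d7 libraries had 0 to 0.232 CPM with 4 of 6 at 0, UIRI d7 libraries 0 to 1.04 CPM (median 0.654) and UIRI d3 libraries 0 to 0.786 CPM (median 0.197), against 12.5 to 23.3 CPM in Control (median 18.8). Every injured library lay below the lowest Control library, a separation that 7.38% of genes showed downward in UIRI+Nx d7, 9.61% in UIRI d7 and 8.08% in UIRI d3. Pooled over libraries, UIRI+Nx d7 gave 5 counts, UIRI d7 47 and UIRI d3 17, against 1945 counts in Control. The rate relative to Control was 0.00433 in UIRI+Nx d7 (95% exact interval 0.00140 to 0.0101), 0.0417 in UIRI d7 (0.0305 to 0.0556) and 0.0136 in UIRI d3 (0.00792 to 0.0219), intervals that cover counting error only. Because Control alone kept C8a in the edgeR test, a difference from Control was built into the filter, and the counts stand as a description. In the second cohort WT_IRNxd7 gave 3 counts, with 3 of 4 libraries at 0 and the other at 0.222 CPM, WT_IRd7 gave 41 counts (0 to 1.07 CPM) and WT_IRd3 gave 53 counts (0.157 to 1.12 CPM).

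Like C8a, distal nephron and proximal tubule markers were lower than in Control. Of 6 distal nephron markers, 5 fell against Control in UIRI+Nx d7, 6 in UIRI d7 and 5 in UIRI d3. Of 13 proximal tubule markers, 9 fell against Control in UIRI+Nx d7, 13 in UIRI d7 and 12 in UIRI d3. Their sum was 4192 to 8604 CPM in UIRI+Nx d7, 5701 to 16183 CPM in UIRI d7 and 11231 to 17671 CPM in UIRI d3, against 48240 to 73371 CPM in Control. The median of that sum was 5508 CPM in UIRI+Nx d7, 10142 CPM in UIRI d7 and 14158 CPM in UIRI d3. C8a too was lowest in UIRI+Nx d7, while UIRI d7 and UIRI d3 stood in the reverse order, on few C8a counts. In the second cohort both ran WT_IRNxd7, WT_IRd7, WT_IRd3 from low to high, with marker medians of 7750, 14182 and 19760 CPM. The median log2 fold change of the 13 markers was -1.54 in UIRI+Nx d7, -1.83 in UIRI d7 and -1.20 in UIRI d3. Hepatocyte markers did not move one way: of 6 tested, 2 rose and 2 fell in UIRI+Nx d7, 1 rose and 3 fell in UIRI d7, and 3 rose and 2 fell in UIRI d3. Their sum was 103 to 580.3 CPM in UIRI+Nx d7 (median 189), 57.2 to 142 CPM in UIRI d7 (median 81.5) and 63.1 to 459 CPM in UIRI d3 (median 102), against 67.5 to 229.8 CPM in Control (median 157). The hepatocyte median was thus below that of Control in UIRI d7 and UIRI d3 and above it in UIRI+Nx d7, with overlap in each case. Of the defining markers Alb, Ahsg and Apoa2, Ahsg was at 0 in every UIRI d3 library. The part of the proximal tubule, of the distal nephron and of hepatocyte RNA in the C8a result was not tested. C8g, which encodes the lipocalin chain of C8, fell to 0.851 to 3.25 CPM in UIRI+Nx d7, 1.50 to 3.10 CPM in UIRI d7 and 1.97 to 3.15 CPM in UIRI d3, against 10.2 to 18.6 CPM in Control. The third chain, C8b, averaged at most 0.0351 CPM in any group of the first cohort and was not kept by the filter.

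**Figure D3:**
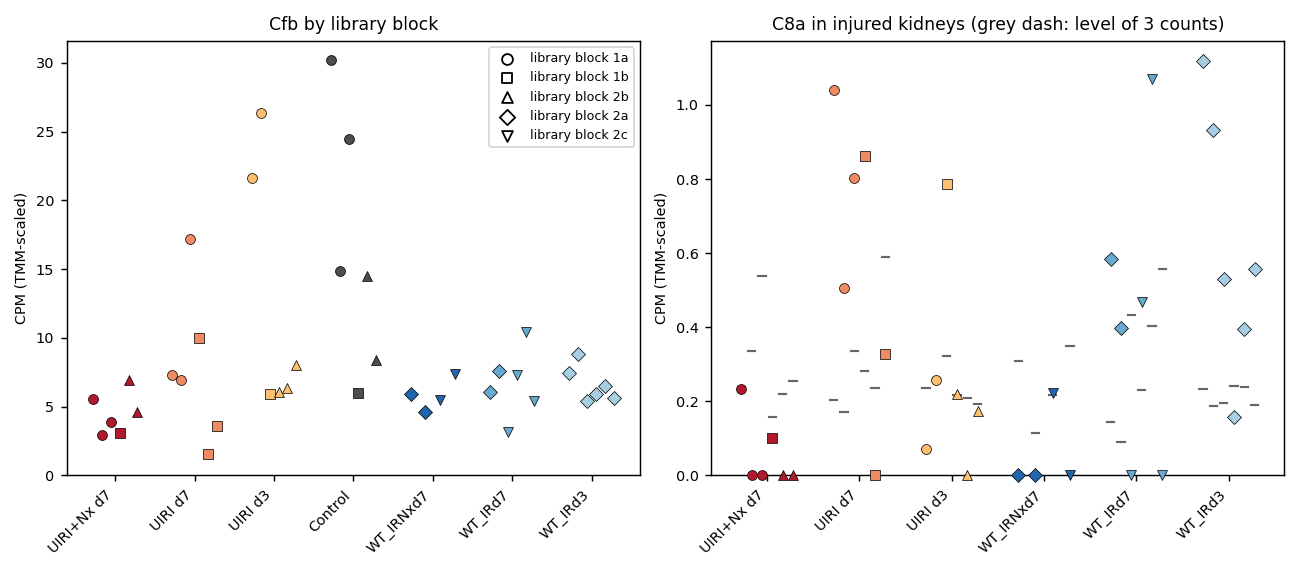
Left, Cfb in every library of both cohorts (y axis, CPM) by group, with library blocks 1a, 1b, 2b, 2a and 2c in separate symbols. Right, C8a in every library of the injured groups of both cohorts (y axis, CPM), with grey dashes at the level of 3 counts; all of these libraries lie at or below 1.12 CPM.

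C3ar1, the C3a receptor of myeloid cells, ran from 20.6 to 41.1 CPM in UIRI+Nx d7 (median 26.6), 26.8 to 60.3 CPM in UIRI d7 (median 35.9) and 10.9 to 35.3 CPM in UIRI d3 (median 28.9), against 1.30 to 4.63 CPM in Control (median 3.99). No injured library overlapped Control. It rose by log2 3.02 ± 0.30 in UIRI+Nx d7 (adjusted p = 1.32e-08), 3.46 ± 0.30 in UIRI d7 (1.24e-09) and 2.94 ± 0.30 in UIRI d3 (1.6e-08). The macrophage marker sums given for C1q were also higher than in Control in these groups, with medians of 1721 CPM in UIRI+Nx d7, 1998 CPM in UIRI d7 and 984 CPM in UIRI d3. C3ar1 too was highest in UIRI d7, but UIRI+Nx d7 differed from UIRI d3 by only log2 0.08 (adjusted p = 0.918).

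**Figure D4:**
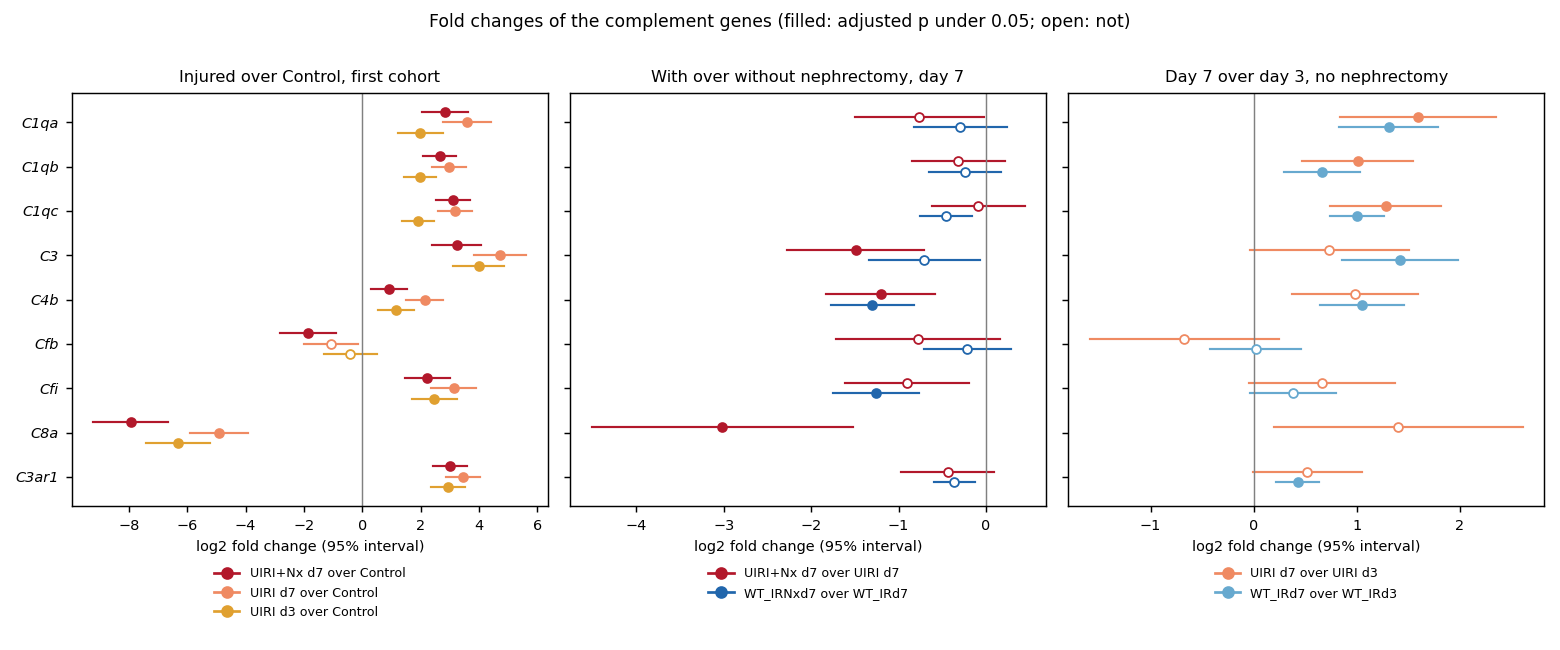
Log2 fold change of each member with its 95% interval (x axis) for the injured groups over Control, for nephrectomy over none, and for day 7 over day 3; filled points passed the adjusted p threshold of 0.05. For nephrectomy all 9 members lie below 0 in the first cohort and all 8 tested in the second. The filled points there are C3, C4b and C8a, which was kept by the filter only through Control, in the first cohort and C4b and Cfi in the second.

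With nephrectomy C3 and C4b were lower in the first cohort and C4b and Cfi in the second, and no member passed the test upward. In UIRI+Nx d7 against UIRI d7, 3 of 9 members passed the edgeR test, of which C8a was kept by the filter only through Control and is described by its counts, where 6.62% of all genes did, 3.17% upward and 3.46% downward. In WT_IRNxd7 against WT_IRd7, 2 of 8 passed, against 5.24% of all genes, 2.58% upward and 2.66% downward. The median log2 difference of the members was -0.78 in UIRI+Nx d7, beside -0.01 over all genes, and -0.41 in WT_IRNxd7, beside 0.00.

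C4b was the member that passed in both cohorts. UIRI+Nx d7 libraries had 14.6 to 25.6 CPM and UIRI d7 libraries 35.4 to 63.8 CPM, and the WT_IRNxd7 libraries had 18.4, 32.3, 49.3 and 25.95 CPM against 53.8 to 106 CPM in WT_IRd7 (median 72.8). The groups did not overlap in either cohort, which was so downward for 1.45% of genes in the first and 3.02% in the second. These shares also stand beside the separations with nephrectomy given below for C3, Cfi and C3ar1. C4b fell by 1.21 ± 0.32 on the log2 scale in UIRI+Nx d7 (adjusted p = 0.0199) and by 1.30 ± 0.24 in WT_IRNxd7 (0.00295). Within blocks the difference was -1.45 (1a), -1.44 (2a) and -1.14 (2c), and none of these passed in fits of so few libraries. The first-cohort call was lost, at adjusted p up to 0.0552, without UIRI+Nx d7 replicate 2 or UIRI d7 replicate 3, and the second-cohort call stayed past the threshold whichever of the 16 libraries was left out.

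C3 ran from 157 to 428 CPM in UIRI+Nx d7 against 447 to 1051 CPM in UIRI d7, without overlap, and fell by 1.49 ± 0.40 on the log2 scale (adjusted p = 0.0234). The call was lost, at adjusted p up to 0.0596, without UIRI+Nx d7 replicate 2 or 5 or UIRI d7 replicate 3 or 4. Over all 24 fits that left out a library the log2 difference was between -1.73 and -1.32. In block 1a alone it was -1.75 (adjusted p = 0.198). In the second cohort the WT_IRNxd7 libraries had 419.7, 355, 625 and 379.9 CPM against 453 to 1506 CPM in WT_IRd7 (median 619). These overlapped, and the log2 difference was -0.71 (95% interval -1.34 to -0.07, adjusted p = 0.24).

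Cfi had 9.34, 4.11, 10.9 and 6.74 CPM in the WT_IRNxd7 libraries against 15.4 to 23.4 CPM in WT_IRd7 (median 18.2). The groups did not overlap, and Cfi fell by 1.25 ± 0.25 on the log2 scale (adjusted p = 0.00566), a call kept whichever library was left out. Within blocks it was -1.44 (2a) and -1.10 (2c), neither past the threshold. In the first cohort Cfi ran from 4.93 to 16.5 CPM in UIRI+Nx d7 against 11.02 to 24.9 CPM in UIRI d7, and the log2 difference was -0.90 (95% interval -1.61 to -0.19, adjusted p = 0.144).

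C8a gave 5 counts in UIRI+Nx d7 against 47 in UIRI d7, a rate ratio of 0.104 (95% exact interval 0.0322 to 0.260, counting error only). No library of either group exceeded 1.04 CPM, and a test between them is not given, since the gene was kept only through Control. The libraries overlapped at 0, where 4 of 6 UIRI+Nx d7 and 1 of 6 UIRI d7 libraries lay. In the second cohort the counts were 3 in WT_IRNxd7 and 41 in WT_IRd7, a ratio of 0.109 (0.0215 to 0.341) that was not tested between libraries because the gene was not kept by the filter.

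The C1q chains were not shown to move with nephrectomy. The log2 difference of UIRI+Nx d7 from UIRI d7 was -0.76 for C1qa (95% interval -1.50 to -0.02, adjusted p = 0.256), -0.31 for C1qb (-0.85 to 0.22, 0.57) and -0.09 for C1qc (-0.62 to 0.44, 0.9). C1qa had 483, 859, 1117 and 973 CPM in the WT_IRNxd7 libraries against 622 to 1835 CPM in WT_IRd7 (median 936), a log2 difference of -0.29 (-0.83 to 0.24). C1qb had 83.2, 117, 117 and 122 CPM in WT_IRNxd7 against 87.5 to 194 CPM in WT_IRd7 (median 118), a log2 difference of -0.24 (-0.65 to 0.17). The groups overlapped for both. C1qc had 103, 75.5, 114 and 77.4 CPM in WT_IRNxd7 against 108 to 170.0 CPM in WT_IRd7 (median 121), at -0.46 (-0.75 to -0.16, adjusted p = 0.0917), and passed at 0.0411 when WT_IRNxd7 replicate 3 was left out. C3ar1 had 24.8, 26.8, 29.3 and 24.0 CPM in WT_IRNxd7, all below the 31.3 to 38.0 CPM of WT_IRd7, at a log2 difference of -0.36 (adjusted p = 0.0917), and -0.44 (0.38) in the first cohort. Cfb differed by -0.78 (adjusted p = 0.383) in the first cohort and by -0.21 (0.701) in the second, where WT_IRNxd7 had 5.92, 4.59, 5.47 and 7.36 CPM against 3.16 to 10.4 CPM in WT_IRd7.

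Marker lists moved with nephrectomy too. Of 16 macrophage and monocyte markers 1 rose and 4 fell in UIRI+Nx d7 against UIRI d7, and 4 fell in WT_IRNxd7 against WT_IRd7. The sum was 1234 to 2118 CPM in UIRI+Nx d7 against 1563 to 2820 CPM in UIRI d7, and 1589 to 2026 CPM in WT_IRNxd7 against 1816 to 2797 CPM in WT_IRd7. Of 10 injured tubule markers 3 fell in the first cohort, and 1 rose and 3 fell in the second, with sums of 4593 to 6142 CPM in WT_IRNxd7 and 5398 to 7240 CPM in WT_IRd7. No fibroblast marker passed in either cohort. Of 4 lymphocyte markers tested, 2 fell in each cohort. The sum of that list was 1.30 to 7.54 CPM in UIRI+Nx d7 against 7.03 to 23.1 CPM in UIRI d7, and 1.64 to 3.99 CPM in WT_IRNxd7 against 8.14 to 16.6 CPM in WT_IRd7, with the defining marker Cd79a at 0 in every UIRI+Nx d7, UIRI d7 and WT_IRNxd7 library. Of 13 proximal tubule markers 2 rose and 1 fell in the first cohort, and 1 rose and 2 fell in the second. Their sum was 4192 to 8604 CPM in UIRI+Nx d7 (median 5508) against 5701 to 16183 CPM in UIRI d7 (median 10142), and 6734 to 8118 CPM in WT_IRNxd7 (median 7750.1) against 8722 to 21282 CPM in WT_IRd7 (median 14182). The most abundant genes weigh most in such a sum. The median log2 difference of the 13 markers was 0.31 in UIRI+Nx d7 and -0.31 in WT_IRNxd7. The part of these cells in the C3, C4b and Cfi differences was not tested.

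Between day 3 and day 7 without nephrectomy, the C1q chains rose in both cohorts. In UIRI d7 against UIRI d3, 3 of 9 members passed, all of them C1q chains that rose, where 2.6% of all genes did and 1.24% rose. In WT_IRd7 against WT_IRd3, 6 of 8 passed and all rose, against 8.56% of all genes, with 4.51% upward. The groups of the first cohort also differed by the sham operation, and the median log2 difference of the members was 0.98 in UIRI d7 and 0.83 in WT_IRd7.

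In the first cohort C1qa was higher by log2 1.60 ± 0.39 in UIRI d7 (adjusted p = 0.0219), C1qb by 1.01 ± 0.27 (0.0443) and C1qc by 1.28 ± 0.27 (0.00941), while the libraries of both days overlapped for each chain. The C1qa call was lost, at adjusted p up to 0.0651, without UIRI d3 replicate 1, 3 or 6 or UIRI d7 replicate 3 or 4. The C1qb call was lost, at up to 0.106, without UIRI d3 replicate 1, 2, 3, 4 or 5, UIRI d7 replicate 3, 4 or 6, or UIRI+Nx d7 replicate 3 or 5. In block 1a alone the difference was 1.47 for C1qa, 0.79 for C1qb and 1.16 for C1qc, and none passed. C4b was separated between the days, at 35.4 to 63.8 CPM in UIRI d7 against 15.1 to 33.7 CPM in UIRI d3, as 1.0% of genes were upward, yet its log2 difference of 0.98 missed the threshold (adjusted p = 0.0998). C3 differed by 0.73 (adjusted p = 0.441), and by 1.34 (0.0358) without UIRI d3 replicate 3.

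In the second cohort C1qa ran from 622 to 1835 CPM in WT_IRd7 against 322 to 625 CPM in WT_IRd3 (median 407) and rose by log2 1.31 ± 0.25 (adjusted p = 0.00201). C1qb ran from 87.5 to 194 CPM in WT_IRd7 against 64.4 to 109 CPM in WT_IRd3 (median 77.5) and rose by 0.66 ± 0.19 (0.0316). C1qc ran from 108 to 170.0 CPM in WT_IRd7 against 56.3 to 75.9 CPM in WT_IRd3 (median 60.5) and rose by 1.003 ± 0.14 (0.0001), without overlap. C3, at 453 to 1506 CPM in WT_IRd7 against 106 to 345 CPM in WT_IRd3 (median 294), rose by 1.42 ± 0.29 (0.00401), also without overlap. C4b, at 53.8 to 106 CPM in WT_IRd7 against 26.6 to 44.5 CPM in WT_IRd3 (median 39.5), rose by 1.05 ± 0.21 (0.00313). C3ar1, at 31.3 to 38.0 CPM in WT_IRd7 against 22.2 to 28.9 CPM in WT_IRd3 (median 24.5), rose by 0.42 ± 0.11 (0.0164). C1qc, C3, C4b and C3ar1 separated the days, which 2.86% of genes did upward. Cfi, at 15.4 to 23.4 CPM in WT_IRd7 against 7.36 to 15.8 CPM in WT_IRd3 (median 15.4), differed by 0.38 (0.303), and Cfb by 0.02 (0.974), at 3.16 to 10.4 CPM in WT_IRd7 against 5.37 to 8.84 CPM in WT_IRd3.

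All WT_IRd3 libraries were in block 2a, which bears on this comparison. With the block as a covariate C1qc kept its call (0.90, adjusted p = 0.00435), and C1qa (0.77, 0.124), C1qb (0.34, 0.52), C3 (1.12, 0.104), C4b (0.78, 0.0977) and C3ar1 (0.46, 0.0679) lost theirs. Over all genes the calls dropped to 349, against 1330 without the covariate. Within block 2a C1qc (0.87, adjusted p = 0.00813) and C4b (0.85, 0.0342) passed. Without any of WT_IRd7 replicates 4, 5 and 6 or WT_IRd3 replicates 1, 2, 4 and 5 the C1qb call was lost, at adjusted p up to 0.0860. Macrophage markers moved with C1q over time as well: 6 of 16 rose in UIRI d7 and 10 of 16 in WT_IRd7, where the sum was 1816 to 2797 CPM in WT_IRd7 and 951 to 1379 CPM in WT_IRd3. Their part was not tested.

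Against day 3, nephrectomised kidneys on day 7 shared the higher C1qc. In UIRI+Nx d7 against UIRI d3 C1qc was the single member of 9 to pass (log2 1.19 ± 0.27, adjusted p = 0.00914), where 5.13% of genes did and 2.06% rose. Within block 1a C1qc was higher by 1.13 (adjusted p = 0.0329), and within block 2b its difference was 0.74 (0.481). In WT_IRNxd7 against WT_IRd3, 3 of 8 passed, against 6.02% of genes (2.97% upward, 3.04% downward): C1qa rose by 1.02 ± 0.27 (adjusted p = 0.0263), C1qc rose by 0.55 ± 0.15 (0.0318), and Cfi fell by 0.87 ± 0.25 (0.0404). With the block as a covariate C1qa was 0.61 (0.155) and C1qc 0.47 (0.0992), while Cfi stayed past the threshold at -1.003 (0.0444). Leaving out a library lost the C1qa call in 7 of 16 fits (WT_IRNxd7 replicates 2, 3 and 4, WT_IRd3 replicates 1, 2, 4 and 5) at adjusted p up to 0.0887. It lost the C1qc call in 5 (WT_IRNxd7 replicates 1 and 3, WT_IRd3 replicates 1, 2 and 5) at up to 0.119. It lost the Cfi call in 11 (WT_IRNxd7 replicates 2 and 4, WT_IRd7 replicates 1, 2, 4 and 5, WT_IRd3 replicates 1 to 5) at up to 0.155. Within block 2a none of these passed, at 0.65 for C1qa (0.261), 0.49 for C1qc (0.188) and -1.11 for Cfi (0.175). Cfb in UIRI+Nx d7 differed from UIRI d3 by -1.45 ± 0.48 (adjusted p = 0.081). With the library block as a covariate the Cfb difference was -1.30 (0.0488), within block 1a it was -2.55 (0.00922) and within block 2b -0.21 (0.887).

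Whether the cohorts differed was tested in a joint fit of all 7 groups over 16606 genes. No gene passed for the effect of nephrectomy, of time, or of time with nephrectomy (0.0% of genes each by edgeR; 1411, 484 and 1115 genes had an unadjusted p under 0.05, and DESeq2 called 1, 0 and 1). For nephrectomy the log2 effect of the first cohort minus that of the second was -0.79 ± 0.55 for C3 (adjusted p = 0.694), 0.09 ± 0.43 for C4b (0.965) and 0.35 ± 0.48 for Cfi (0.842). The call of C3 in the first cohort alone and of Cfi in the second alone therefore does not show a difference between cohorts.

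Ordered by mean level, C1qa, C1qb, C1qc and C3ar1 ran Control, UIRI d3, UIRI+Nx d7, UIRI d7 from low to high, with WT_IRd3, WT_IRNxd7, WT_IRd7 in the second cohort. In that order UIRI+Nx d7 and UIRI d7 did not differ past the threshold for any of the 4 genes. C3, C4b and Cfi ran Control, UIRI+Nx d7, UIRI d3, UIRI d7, and UIRI+Nx d7 and UIRI d3 did not differ past the threshold for any of the 3. Cfb ran from UIRI+Nx d7 at 4.51 ± 1.55 CPM to Control at 16.4 ± 9.32 CPM (SD, n = 6 each), with UIRI d7 and UIRI d3 between. C1qa was the most abundant member in UIRI+Nx d7, at 545 ± 251 CPM, and in UIRI d7, at 923 ± 577 CPM, and C3 followed in UIRI d7 at 679.7 ± 246 CPM (SD, n = 6 each), on a scale of counts near the 3′ end that does not depend on transcript length.

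The wider list held 52 complement genes, of which the first cohort had 38 tested and the second 37. Against Control 22 rose and 6 fell in UIRI+Nx d7, 25 rose and 5 fell in UIRI d7, and 22 rose and 4 fell in UIRI d3. Over all tested genes 17.3% rose and 14.0% fell in UIRI+Nx d7, 21.5% and 18.1% did so in UIRI d7, and 17.8% and 14.9% in UIRI d3, the shares against which the counts by role below also stand. The median log2 fold change of the list was 1.26 in UIRI+Nx d7, 1.43 in UIRI d7 and 1.002 in UIRI d3. Of 8 receptors tested, 7 rose in UIRI+Nx d7, 7 in UIRI d7 and 6 in UIRI d3. C5ar1, the C5a receptor, rose by log2 4.71 in UIRI+Nx d7, 4.93 in UIRI d7 and 4.95 in UIRI d3. Itgam, a chain of complement receptor 3, rose by 5.11 in UIRI+Nx d7, 4.50 in UIRI d7 and 4.38 in UIRI d3. Neutrophil markers rose over Control as well: of 6 tested, 4 rose in UIRI+Nx d7, 6 in UIRI d7 and 6 in UIRI d3. Their median log2 fold change was 2.61 in UIRI+Nx d7, 3.87 in UIRI d7 and 5.36 in UIRI d3. That is the order of C5ar1, whose values lay close together, and the reverse of the order of Itgam. The neutrophil marker sum was 26.7 to 54.8 CPM in UIRI+Nx d7, 24.0 to 207 CPM in UIRI d7 and 44.4 to 2010 CPM in UIRI d3, against 2.94 to 12.9 CPM in Control. No defining neutrophil marker was at 0 throughout a group, and the part of these cells was not tested. Cfp, which encodes properdin, the stabiliser of the alternative pathway, rose by 3.26 in UIRI+Nx d7, 3.02 in UIRI d7 and 3.52 in UIRI d3. Itgb2, the beta chain shared by complement receptors 3 and 4, rose by 2.83 in UIRI+Nx d7, 2.81 in UIRI d7 and 2.27 in UIRI d3. Clu, which encodes clusterin, a fluid-phase inhibitor of the terminal complex, was the most abundant of these, at 639 to 1143 CPM in UIRI+Nx d7, 796 to 1509 CPM in UIRI d7 and 667 to 1643 CPM in UIRI d3, against 162 to 252 CPM in Control, without overlap. It rose by log2 1.958 in UIRI+Nx d7, 2.47 in UIRI d7 and 2.41 in UIRI d3. Of 5 membrane regulators, which protect host cells, 1 fell in UIRI+Nx d7, 2 in UIRI d7 and 2 in UIRI d3. Cd55 fell by 2.11 in UIRI+Nx d7, by 2.05 in UIRI d7 and by 1.33 in UIRI d3, and Cd59a fell by 1.04 in UIRI d7 and by 0.95 in UIRI d3. Among terminal pathway genes C8g fell by 2.80 in UIRI+Nx d7, 2.40 in UIRI d7 and 2.34 in UIRI d3. C8a fell as given above and is in the counts of the list, though the filter kept it only through Control. C4bp, a fluid-phase regulator, is among the 25 that rose in UIRI d7. Its passing the filter rested on that group, as given below, so this call is no support either. Mbl1, a lectin that starts the lectin pathway, fell by 2.78 in UIRI+Nx d7 and by 1.28 in UIRI d7, a call lost in 7 of 24 fits that left out a library. Cr2, which encodes complement receptor 2, fell by 2.20 in UIRI+Nx d7 (adjusted p = 0.000721), at 0 to 1.24 CPM against 2.34 to 3.81 CPM in Control, and its log2 difference was -0.64 (0.26) in UIRI d7 and -0.97 (0.0918) in UIRI d3.

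With nephrectomy 1 gene of the wider list rose and 5 fell in the first cohort, and 1 rose and 4 fell in the second, where 3.17% of all genes rose and 3.46% fell in UIRI+Nx d7, and 2.58% rose and 2.66% fell in WT_IRNxd7. Beside the members, C4bp, an inhibitor of C4b, ran from 0 to 0.387 CPM in UIRI+Nx d7 against 1.16 to 2.46 CPM in UIRI d7. It is counted among the 5, as is C8a, but UIRI d7 was the one group with C4bp above 1 CPM in every library, so that its passing the filter rested on that group and its call is no support. Cd59a rose by 0.79 (adjusted p = 0.0144), at 88.2 to 121 CPM in UIRI+Nx d7 against 29.5 to 81.3 CPM in UIRI d7. Itgax, a myeloid integrin chain, fell by 1.55 (0.0167), a call lost without UIRI d7 replicate 4 (adjusted p = 0.0852). In WT_IRNxd7 Fcna, which encodes ficolin A of the lectin pathway, rose by 2.03 (0.00359), at 4.88 to 20.0 CPM against 1.58 to 5.62 CPM in WT_IRd7, and in the first cohort its difference was 1.74 (0.0789). Serping1, the C1 inhibitor, was lower by 0.56 (adjusted p = 0.0411), and C1ra, a protease of the C1 complex, by 0.81 (0.0438). The Serping1 call was lost in 11 and the C1ra call in 9 of 16 fits that left out a library. Over time 4 genes of the list rose in UIRI d7, beside 1.24% of all genes, and 11 in WT_IRd7, beside 4.51%, with none of the list falling, and Itgax rose by 1.87 in UIRI d7 (adjusted p = 0.00908) and by 1.37 in WT_IRd7 (0.000186). Against day 3, 4 genes rose and 1 fell in UIRI+Nx d7, and 4 rose and 2 fell in WT_IRNxd7, beside 5.13% and 6.02% of all genes called in either direction. Fcna rose in both, by 2.61 in UIRI+Nx d7 (adjusted p = 0.0105) and by 2.62 in WT_IRNxd7 (0.00031). Fcna libraries ran from 2.32 to 17.5 CPM in UIRI+Nx d7 against 0.292 to 2.71 CPM in UIRI d3, and from 4.88 to 20.0 CPM in WT_IRNxd7 against 1.19 to 3.28 CPM in WT_IRd3. Mbl1 fell in both, by 2.31 in UIRI+Nx d7 (adjusted p = 0.0077) and by 1.01 in WT_IRNxd7 (0.0274), a call lost in 6 of 16 fits that left out a library, at adjusted p up to 0.0870.

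**Figure D5:**
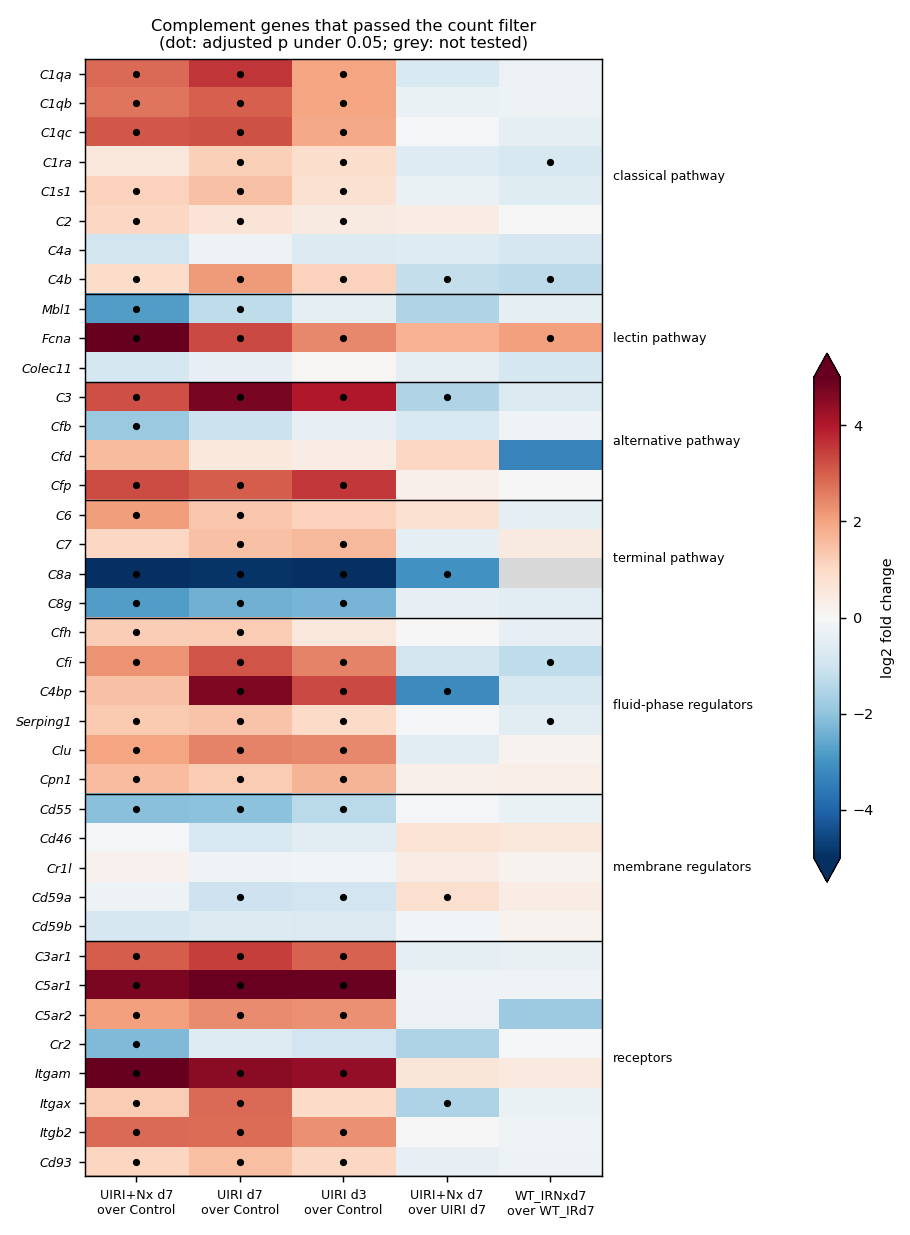
Log2 fold change (colour) of the 38 tested genes of the wider complement list (rows, grouped by role) in 5 comparisons (columns); a dot marks an adjusted p under 0.05 and grey a gene not tested. Most receptor and classical pathway genes are higher in injured groups, and C8a and C8g are lower.

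Genes whose log2 levels ran most like a member over the 24 first-cohort libraries were Laptm5, Vsir and Serpine2 for C1qa, at Pearson r of 0.970, 0.969 and 0.968. For C3 they were Tnfrsf1b (0.968), Lcp2 (0.968) and Serpina10 (0.959), and for Cfi they were Ptafr (0.946), Spp1 (0.928) and Adgre1 (0.916). For C8a they were Slc22a7 (0.976), Mpped1 (0.969) and Slc22a26 (0.967). These libraries share the contrast of injured and Control kidneys. Over the 16 second-cohort libraries, where no Control enters, r was 0.931, 0.827 and 0.926 for the genes like C1qa, and 0.218, 0.768 and 0.826 for those like C3. It was 0.539, 0.512 and 0.702 for those like Cfi, and 0.235, 0.124 and 0.548 for those like C8a, most of whose values there are 0 or a few counts.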

How the data were processed

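Messenger RNA was measured in 40 mouse kidney libraries with the QuantSeq 3′ FWD kit, per the labels' protocols. A further column of the table, titled as undetermined and given no group, was left out of all comparisons. The deposited table holds whole-number counts per gene, not normalized. Per the submitters' processing notes, the first cohort was processed with Trimmomatic, STAR and HTSeq 0.6.1 on GRCm38 (mm10), and the second with STAR 2.7.11b on GRCm39. No source used here gives the annotation or strand setting. Because the notes differ between cohorts, each was fitted apart, and a joint fit of all 7 groups served only to test differences between cohorts. Symbols matched 48349 gene identifiers and not 446. Gene positions come from GENCODE (GRCm38) and promoters from RefSeq on GRCm38.p6, which held no entry for C1qa, C4b, Cfb and Cfi.

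Counts were tested with edgeR 4.0.16 (R 4.3.3, limma 3.58.1): TMM scaling, filterByExpr, a quasi-likelihood F test over all groups of a cohort, and Benjamini-Hochberg adjustment over all tested genes at 0.05. The procedure was also run on simulated counts of UIRI d7 against Control, with the same spread set for every gene. That run does not measure how reliable the calls of the other comparisons are. Levels are CPM (counts per 1000000), with mean and SD by group. Intervals of log2 differences take a normal error. C8a ratios are of pooled counts with a 95% exact binomial interval, and C8a detection is limited to about 3 counts a library, 0.0899 to 0.589 CPM. Alternatives were DESeq2 1.42.0, RLE scaling, no filter, fits of 2 groups, the replicate number or the library block as a covariate, single blocks, and leaving out each library. No libraries of a group agreed within sampling noise: chi-square per degree of freedom was 8.57 to 199 over 96 pairs.

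The members and gene lists were chosen with earlier results of these data known. Named are the 9 members, up to 4 higher and 4 lower genes of the wider list with the smallest adjusted p among those called in a comparison (most of them described), and the 3 genes with the highest correlation with C1qa, C3, C8a and Cfi. C4a and C8b were named after their values were seen.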

Additional observations from a re-analysis of the deposited data

Results flagged for a closer look

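Of 63 groups of members' values, 11 held a library whose gap to its nearest neighbour took an unusually large share of the group's range. The limits used would flag about 1 in 20 groups of normally distributed values. CPM values need not be so distributed, least of all C8a groups made mostly of 0, and the rate was not tested here. For C3 these were UIRI+Nx d7 replicate 4 (428 CPM), UIRI d3 replicate 3 (1107 CPM), WT_IRd7 replicate 6 (1506 CPM) and, on the low side, WT_IRd3 replicate 4 (106 CPM). C1qa was high in WT_IRd3 replicate 6 (625 CPM), C1qb low in WT_IRNxd7 replicate 1 (83.2 CPM), and C1qc high in WT_IRd7 replicate 3 (170.0 CPM). Cfi was high in UIRI d3 replicate 6 (22.9 CPM) and low in WT_IRd3 replicate 6 (7.36 CPM). C8a was highest in UIRI d3 replicate 3 (0.786 CPM) and WT_IRNxd7 replicate 3 (0.222 CPM), both values of a few counts.

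The column titled as undetermined, whose labels give a kidney source but no group, had 12446693 counts and held 7 members above the range of the Control libraries on plain CPM. Its library name carries the prefix of the second cohort, which has no Control group. The labels do not say whether it holds a single kidney or reads of several libraries, so these levels do not place it in a group. C1qa was at 455 CPM (95% Wilson interval 443 to 467), against 30.3 to 126 CPM in Control. C1qb and C1qc were both at 75.0 CPM (70.4 to 80.0), each from 934 counts, against 8.69 to 20.6 and 8.04 to 17.5 CPM in Control. C3 was at 289 CPM (279.9 to 299), against 9.85 to 42.1 CPM. C4b was at 36.6 CPM (33.4 to 40.2), Cfi at 12.6 CPM (10.8 to 14.7) and C3ar1 at 24.2 CPM (21.6 to 27.1), against Control ranges of 3.49 to 17.7, 0.637 to 3.41 and 1.11 to 4.11 CPM. C8a was at 2.17 CPM (1.49 to 3.16), below the Control range of 10.4 to 21.3 CPM. The intervals cover counting error only.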

How the results depend on the processing

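All 63 group levels moved by less than 1 SD under RLE scaling and plain CPM. The counts of complement genes called stayed within 1.5 times their value under DESeq2, RLE scaling, no filter and the replicate block. With the replicate block they were 28 (UIRI+Nx d7), 29 (UIRI d7) and 27 (UIRI d3) over Control, 7 for UIRI+Nx d7 over UIRI d7, 5 for UIRI d7 over UIRI d3, 4 for UIRI+Nx d7 over UIRI d3, and 5, 10 and 4 for WT_IRNxd7 over WT_IRd7, WT_IRd7 over WT_IRd3 and WT_IRNxd7 over WT_IRd3. The numbers did not pair libraries: correlations of deviations ran from -0.460 to 0.491. With this block C4b in UIRI d7 over UIRI d3 passed (adjusted p = 0.0438), as did C1qc in WT_IRNxd7 over WT_IRd7 (0.0441), and C1qc in WT_IRNxd7 over WT_IRd3 did not (0.0530). Other counts of the list moved: WT_IRNxd7 over WT_IRd7 gave 3 in a fit of 2 groups and 0 within blocks 2a and 2c, against 5. WT_IRd7 over WT_IRd3 gave 2 with the library block as a covariate and 3 within 2a, against 11, and WT_IRNxd7 over WT_IRd3 gave 3 and 1, against 6. UIRI+Nx d7 gave 13 over Control within 2b, against 28, 0 over UIRI d7 within 1a, against 6, and 0 over UIRI d3 within 2b, against 5. UIRI d7 over UIRI d3 gave 0 within 1a, against 4. Leaving out a library gave 2 to 4 for UIRI d7 over UIRI d3 (2 without UIRI d7 replicate 3 or UIRI d3 replicate 1) and 3 to 6 for UIRI+Nx d7 over UIRI d3 (3 without UIRI+Nx d7 replicate 3 or 4). It gave 3 to 9 for WT_IRNxd7 over WT_IRd7 (9 without WT_IRNxd7 replicate 3, and 3 without WT_IRNxd7 replicate 1, 2 or 4, WT_IRd7 replicate 4 or 6, or WT_IRd3 replicate 2, 3 or 5), 7 to 11 for WT_IRd7 over WT_IRd3 (7 without WT_IRd7 replicate 5 or WT_IRd3 replicate 1), and 2 to 6 for WT_IRNxd7 over WT_IRd3 (2 or 3 without WT_IRNxd7 replicate 2 or 4 or WT_IRd3 replicate 1, 2 or 5). Over all genes, UIRI+Nx d7 over UIRI d7 gave 586 calls in a fit of 2 groups, against 1040, and 0 within 1a (1320 at an unadjusted p under 0.05). UIRI d7 over UIRI d3 gave 711 by DESeq2, against 409, 0 within 1a (1013 unadjusted), and 263 and 247 without UIRI d7 replicates 2 and 3. WT_IRNxd7 over WT_IRd7 gave 328 without WT_IRNxd7 replicate 2 and 8 and 16 within 2a and 2c, against 814. Within 2b UIRI+Nx d7 gave 680 over Control, against 4909, and 94 over UIRI d3, against 805 (1329 within 1a, 525 and 524 without UIRI+Nx d7 replicates 3 and 4). UIRI d3 over Control gave 2475 within 2b, against 5132, UIRI d7 over Control 3233 within 1a, against 6218, WT_IRd7 over WT_IRd3 313 within 2a, against 1330, and WT_IRNxd7 over WT_IRd3 339 within 2a, against 935 (554 and 615 without WT_IRNxd7 replicates 2 and 4).

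Signs turned only for differences that had not passed. Cfb in WT_IRd7 over WT_IRd3 was -0.037 with the replicate block, -0.037 with the library block and -0.14 to 0.15 when a library was left out. Cfb in UIRI d3 over Control was 0.070 within 1a. In UIRI+Nx d7 over UIRI d3, Cfi was 0.51 and C3ar1 -0.53 within 1a, and -0.45 to 0.07 and -0.079 to 0.18 when a library was left out. C1qc in UIRI+Nx d7 over UIRI d7 was -0.27 to 0.12 when a library was left out, and C1qb in WT_IRNxd7 over WT_IRd7 was 0.029 within 2a. In fits of 2 groups C4b in UIRI+Nx d7 over Control (adjusted p = 0.0632), C1qb in UIRI d7 over UIRI d3 (0.0711) and Cfi in WT_IRNxd7 over WT_IRd3 (0.105) lost their calls. C4b in UIRI d7 over UIRI d3 (0.0277) and Cfb in UIRI+Nx d7 over UIRI d3 (0.0460) gained one, the last also with the library block as a covariate (0.0488) and within 1a (0.00922). DESeq2 called Cfb in UIRI d7 over Control (0.0463), Cfb in UIRI+Nx d7 over UIRI d3 (0.0285) and C3ar1 in WT_IRNxd7 over WT_IRd7 (0.0447), and without the filter C3ar1 in WT_IRd7 over WT_IRd3 (0.0886) and C1qc in WT_IRNxd7 over WT_IRd3 (0.0505) missed the threshold. Single blocks hold 2 to 6 libraries a group, so their fits have fewer libraries, and the cause of the other changes was not tested. Depth limits C8a in injured kidneys, where most libraries gave few or no counts.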
